A study of Mus musculus with 12 samples.

Results

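Beta cells of the pancreas make insulin, and a small set of genes that most other tissues use is kept almost silent in them. The 29 genes described here are such disallowed genes together with genes that mark beta cells losing their identity. They were taken by symbol from a prepared list, not by a threshold on their values, and all 29 had a row in the table of 23339 named genes. RNA was sequenced from the pancreatic islets of C57BL/6 mice, which hold beta cells beside other hormone cells. The 6 KO libraries carried the genotype miR-17-92/106 KO and the 6 control libraries the genotype miR-17-92/106 Control, and the comparison addressed which islet transcripts differ between them. The age of the mice, the cells in which the microRNAs were deleted, the driver of the deletion and whether each library was a separate animal are not given in the sources used here. The p-values below therefore measure the spread between these libraries, which may be technical.

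Disallowed genes are best known from lactate and pyruvate handling. A beta cell senses glucose by burning it in the mitochondria, and it keeps lactate dehydrogenase A, the plasma membrane carrier of lactate and pyruvate, and the hexokinases that work at low glucose at a low level. In humans, promoter changes that turn on the carrier SLC16A1 in beta cells let pyruvate from exercising muscle trigger insulin release. In mouse models of diabetes, beta cells can lose their identity and express genes of endocrine progenitors such as Neurog3 or the retinaldehyde dehydrogenase Aldh1a3. MicroRNAs lower the levels of transcripts that hold a match to their seed, the bases near the 5′ end, and the deleted clusters are widely expressed families of this kind.

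Total counts per library lay between 2642420 and 4966721 in KO and between 2705479 and 5099566 in control libraries, and Ins1 and Ins2 took 48.6% to 64.0% of them. Mir17hg, the host transcript of the miR-17-92 cluster, had 0 to 7 counts in a KO library and 0 to 4 in a control library, so the deletion could not be checked from these counts. The label of islet tissue was checked against mature beta cell genes, and all 17 of them passed the expression filter. KO replicates 5 and 6 and control replicate 1 stood apart by markers of acinar cells, which surround the islets and secrete digestive enzymes. Their summed levels were 152917, 118914 and 57850 CPM (the count over the TMM-scaled library size), against 12454 to 23077 CPM in the other 9 libraries. KO replicate 6, the library whose title starts with 703, also stood apart by lymphocyte markers, with 233 CPM against 17.2 to 30.6 CPM in the other 11 libraries. The tests are therefore given with and without it, as are the values of part of the single genes. The titles of the 6 KO libraries start with numbers from 659 to 703 and those of the control libraries with 706 and with 805 to 992. What these numbers stand for is not given, and anything that follows them cannot be told apart from the genotype.

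The microRNAs of the deleted clusters are shown because their seeds define the sites searched in the 29 genes. The mature sequences are from RefSeq (GRCm38.p6), 5′ to 3′, with the seed, bases 2 to 8, in capitals. The miR-17-92 cluster lies on chromosome 14 and the miR-106b cluster on chromosome 5. The first 4 share a seed, miR-18a differs from them within the seed, and the last 4 form the pairs miR-25 with miR-92a and miR-19a with miR-19b.
miR-17-5p: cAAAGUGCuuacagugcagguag
miR-20a-5p: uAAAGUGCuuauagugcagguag
miR-93-5p: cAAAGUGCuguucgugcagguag
miR-106b-5p: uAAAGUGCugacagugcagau
miR-18a-5p: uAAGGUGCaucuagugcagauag
miR-25-3p: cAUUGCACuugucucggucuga
miR-92a-3p: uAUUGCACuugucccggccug
miR-19a-3p: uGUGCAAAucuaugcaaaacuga
miR-19b-3p: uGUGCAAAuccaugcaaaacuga

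Of the 29 genes, 12 held at least 1 match to these 4 seeds in their annotated 3′ UTR, which is 41.4%, against 34.2% of the 9362 tested genes with a 3′ UTR. The median 3′ UTR was 1399 bases long in the 29 genes and 1196 bases in the tested genes. The letters searched were GCACTTT for the miR-17 seed, GCACCTT for miR-18a, GTGCAAT for miR-25 and miR-92a, and TTTGCAC for miR-19, on the transcribed strand; GCACTTT and TTTGCAC overlap where TTTGCACTTT occurs. GCACTTT stood in 8 of the 29 genes (27.6%, against 14.8% of tested genes), namely Rest, Pdgfra, Igfbp4, Arap2, Dapk2, Nfib, Parp3 and Neurog3. TTTGCAC was found in 6 of the 29 (20.7%, against 13.5% of tested genes). GCACCTT was found in 4 (13.8%, against 9.4%) and GTGCAAT in 3 (10.3%, against 7.8%). The 29 include 21 genes under the expression filter, while the tested genes all passed it. The sites below belong to the 3 genes with a site that were abundant enough to be tested, and to the repressor gene Rest. They are shown 5′ to 3′ on the transcript with 1 match in capitals, and a match is a description of the letters, not of binding. For each gene 1 site is shown, and Nfib and Rest hold further sites. In the Nfib stretch a TTTGCAC match overlaps the match in capitals.
Neurog3: ccttcttctGCACTTTtcaagtcgt
Nfib: tcatgttttGCACTTTctagtagtt
Zfp36l1: cacacaagtGCACCTTtctttcggt
Rest: attaagttaGCACTTTacagtttct
These stretches lie in the 3′ UTR at chr10:62134606-62134630 on the plus strand for Neurog3, chr4:82291748-82291772 on the minus strand for Nfib, chr12:80109063-80109087 on the minus strand for Zfp36l1 and chr5:77283362-77283386 on the plus strand for Rest, all in GRCm38.

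The 29 genes together were low in the islets, in KO and control libraries alike. The 6 KO libraries held 1326 counts of them and the 6 control libraries 1373, which is 0.00603% of all counts, and no gene had more than 45 counts in a library. Between 2 and 5 of the 29 had 0 counts in any one library, and 21 of the 29 had counts in all 12 libraries. Summed over the 29 genes, the level was 61.1 ± 10.6 CPM in KO and 61.4 ± 2.36 CPM in control libraries (SD, n = 6 each). The 6 KO sums were 56.9, 56.3, 52.0, 54.3, 66.7 and 80.2 CPM in replicates 1 to 6, and the control sums ran from 59.1 to 65.3 CPM. So KO replicates 1 to 4 lay below every control library and KO replicates 5 and 6 above every one. With total counts as the denominator this order was lost, with 53.2 to 72.7 CPM in KO and 56.1 to 72.7 CPM in control libraries. In whole islets, fewer cells of a type and less RNA per cell cannot be told apart, and these sums include the non-beta cells of the preparation.

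**Figure D1:**
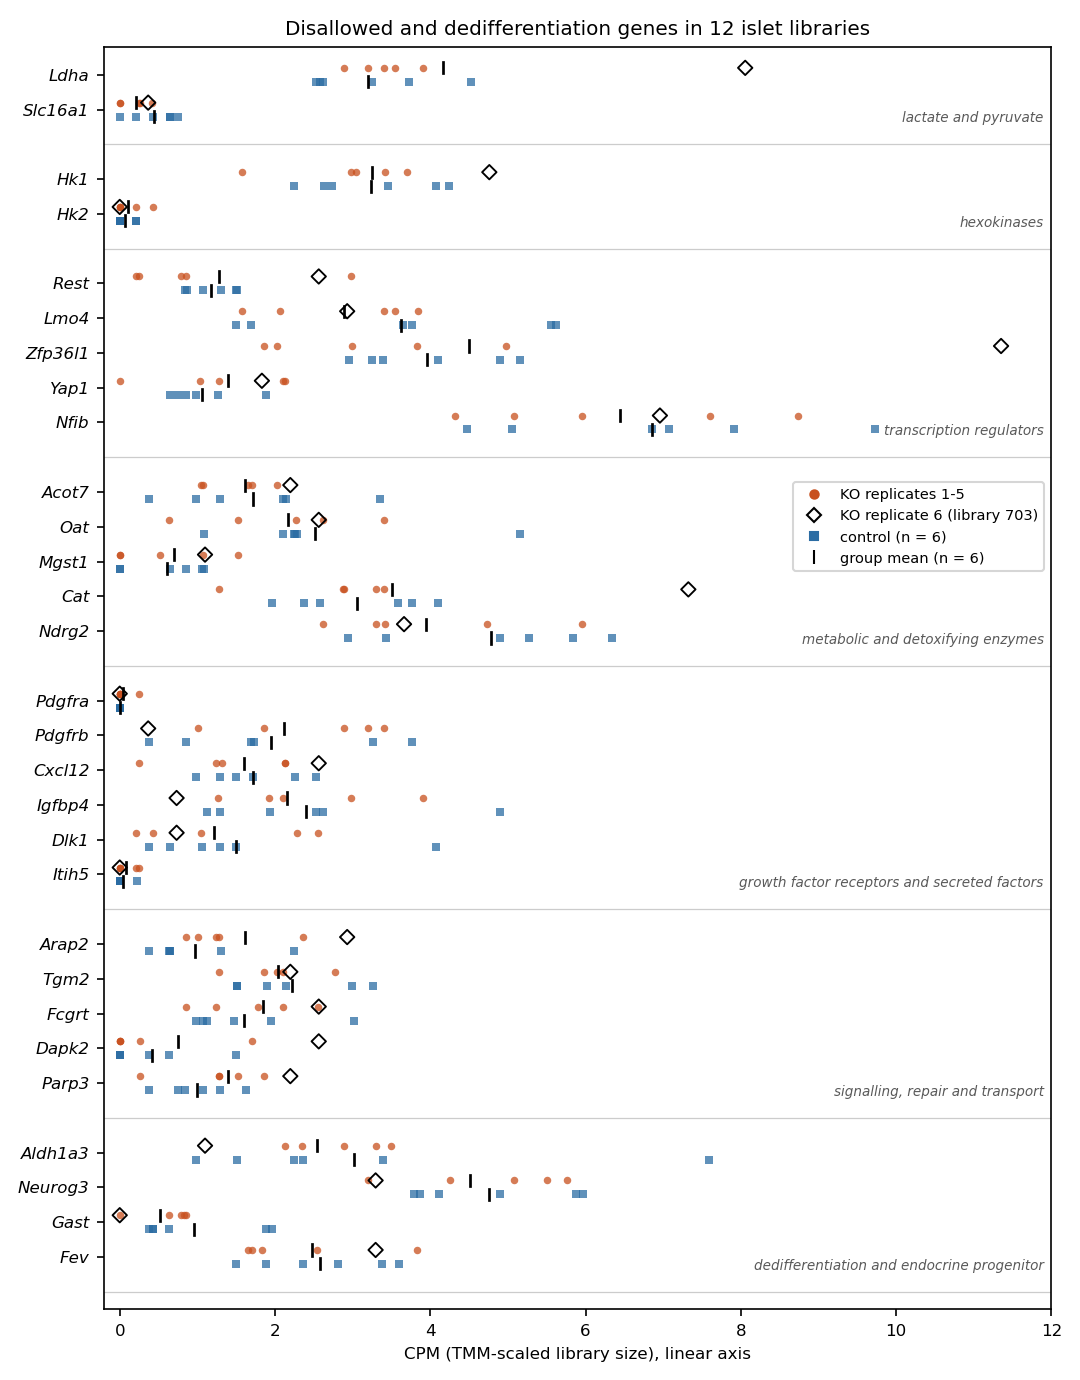
CPM of each of the 29 genes in every library, grouped by role, with KO libraries (circles; KO replicate 6 as an open diamond) above control libraries (squares) and vertical ticks at the group means. KO and control points overlap for every gene, and KO replicate 6 lies far to the right of all other libraries for Ldha, Zfp36l1 and Cat.

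Levels between genes were compared per kilobase of exon, in the control libraries. The median of the 29 genes was 0.617 CPM per kilobase, against 1.45 over the 16057 genes ranked, and 6 of the 29 exceeded that median gene. Neurog3, the transcription factor of endocrine progenitors, had the highest level of the list, 3.09 ± 0.642 CPM per kilobase (SD, n = 6), which put it at the 64.4th percentile of all genes. It was followed by Ndrg2 at 2.22, Gast at 2.07, Lmo4 at 1.80, Fev at 1.70 and Ldha at 1.69 CPM per kilobase. At the low end stood Rest at 0.164, Arap2 at 0.133, Slc16a1 at 0.101 and Hk2 at 0.0126 CPM per kilobase, with Itih5 and Pdgfra at or next to 0. Of the 28 neighbouring pairs in this order, 1 had a mean difference over the controls larger than the SD of that difference, Slc16a1 above Hk2, so the exact order of the others was not resolved. Genes that a mature beta cell uses were all higher than any of the 29, such as the transcription factor Pax6 at 8.33 and Ins2 at 339099 CPM per kilobase, both picked after their values were seen.

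**Figure D2:**
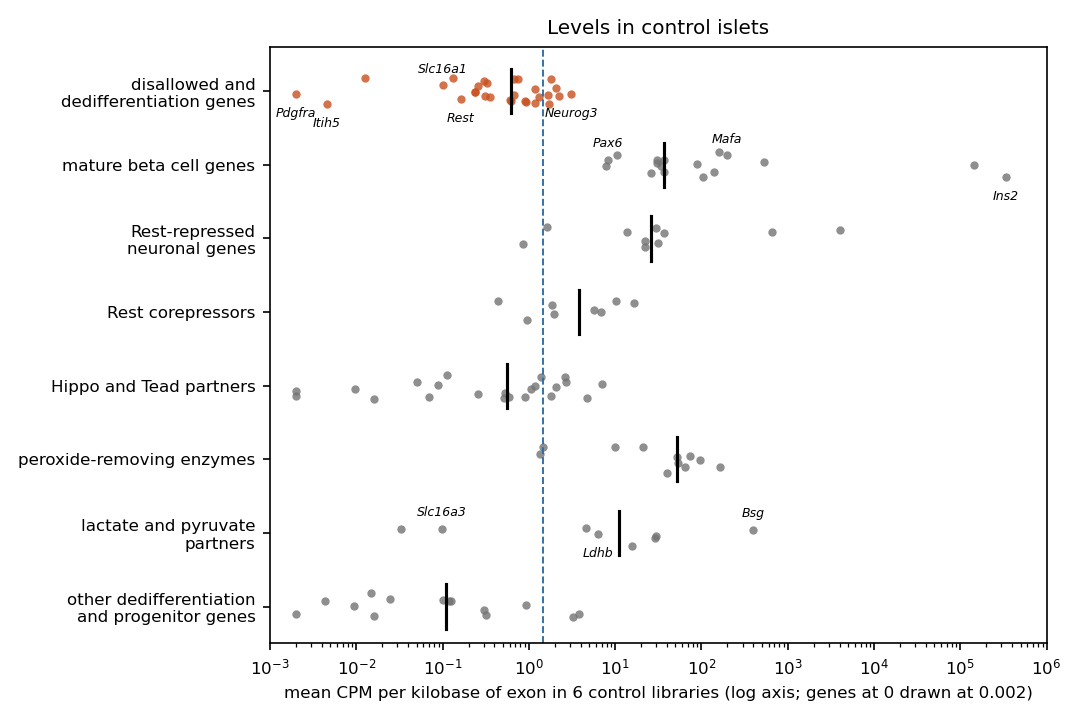
Mean level in the 6 control libraries, in CPM per kilobase of exon on a log axis, for the 29 genes and for 7 lists of partner and identity genes; black ticks are list medians and the dashed line is the median of all ranked genes, 1.45. The 29 genes lie between 0 and 3.09 CPM per kilobase, below every mature beta cell gene.

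The question of the KO comparison was whether any of these normally silent genes differed in KO islets, and no gene of the list passed the test. The expression filter left 8 of the 29 (Ldha, Hk1, Lmo4, Zfp36l1, Cat, Nfib, Neurog3 and Ndrg2) and removed 21. Of those 8, 0 were called by edgeR's quasi-likelihood test at a Benjamini-Hochberg adjusted p of 0.05, against 12 of 9664 genes tested, 0.124%. At an unadjusted p under 0.05 there were also 0 (lowest 0.178), against 7.91% of all tested genes, and their adjusted p values ran from 0.783 to 0.993. Without the filter all 29 entered the fit, with 0 called against 0.135% of all genes, and 0 at an unadjusted p under 0.05 (lowest 0.139, for Arap2) against 7.42%. DESeq2 gave an adjusted p to 25 of the 29 and called 0 of them, against 0.229% of the 12226 genes with an adjusted p. The lowest unadjusted p of the 29 in DESeq2 was 0.157. The authors' deposited table gives Arap2 the lowest unadjusted p of the 29, 0.151. The KO and control ranges overlapped for all 29 genes, while they did not overlap for 0.579% of the tested genes and 0.394% of the genes with any count. Without KO replicate 6, 11 of the 29 passed the filter, Pdgfrb, Aldh1a3 and Fev in addition, and 0 were called by edgeR, against 0.153% of all genes tested. An unadjusted p under 0.05 was again reached by 0 of them (lowest 0.195), against 7.39% of all genes tested. With no filter and without KO replicate 6 the count of calls was 0 as well, against 0.223%, with 0 at an unadjusted p under 0.05 (lowest 0.211), against 7.0%.

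The median log2 fold change, KO over control, was -0.02 over the 8 tested genes and 0.0033 over all genes tested, with 3 of the 8 above 0 and 5 below. Leaving out KO replicate 6 moved the median of the same 8 genes to -0.15. The counts and the spread between libraries limit what could be seen. The 95% intervals of the 8 log2 fold changes reached from -0.99 for Lmo4 to 0.92 for Ldha, and differences within each gene's interval remain possible.

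**Figure D3:**
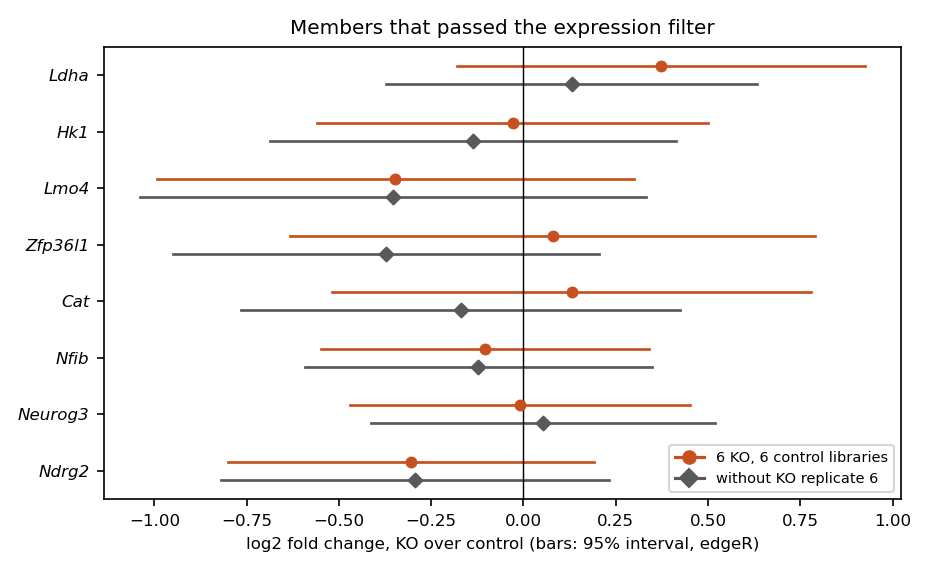
Log2 fold change, KO over control, of the 8 genes that passed the expression filter, with 95% intervals from edgeR, over all libraries (circles) and without KO replicate 6 (diamonds). Every interval includes 0, and Zfp36l1 and Cat move from above 0 to below it when KO replicate 6 is left out.

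Of the 2 lactate and pyruvate genes, Slc16a1 stood at the 19.2nd percentile of all genes per kilobase in control libraries. Ldha stood at the 52.6th percentile, near the middle. Ldha, which turns pyruvate into lactate, had a lowest, median and highest level of 2.88, 3.48 and 8.06 CPM in KO libraries, against 2.53, 2.93 and 4.52 CPM in control libraries. KO replicate 6 was the high value, and the other 5 KO libraries, up to 3.91 CPM, lay within the control range. Its log2 fold change was 0.37 (SE 0.27, edgeR Benjamini-Hochberg adjusted p = 0.783), and 0.13 (SE 0.24, adjusted p = 0.952) without KO replicate 6. The annotation holds processed pseudogenes of Ldha, which could share its reads. Slc16a1, which carries lactate and pyruvate across the plasma membrane, had 5 counts in KO and 10 in control libraries, or 0 to 0.412 CPM in KO and 0 to 0.746 CPM in control libraries. The KO to control ratio was 0.501 with a 95% interval from counting error of 0.134 to 1.61, and the two-sided exact permutation p was 0.134. Without KO replicate 6 the ratio was 0.456 (0.104 to 1.58). For comparison in control libraries, the other lactate dehydrogenase subunit gene, Ldhb, stood at 6.38 CPM per kilobase, the carrier's chaperone basigin (Bsg) at 395 and the other carriers Slc16a3 and Slc16a7 at 0.0988 and 0.0333. These 4 genes were chosen after their values were seen. Of 6 tested genes in the list of lactate and pyruvate partners, 0 were called. The smallest unadjusted p belonged to the aspartate aminotransferase Got1, with 9.35 to 17.1 CPM in KO and 6.78 to 10.6 CPM in control libraries (log2 fold change 0.39, adjusted p = 0.542).

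Hexokinases that work at low glucose were present as Hk1 and nearly absent as Hk2. Hk1 had 1.57, 3.23 and 4.76 CPM as lowest, median and highest in KO libraries, against 2.24, 3.10 and 4.24 CPM in control libraries, with a log2 fold change of -0.03 (SE 0.26). The KO range enclosed the control range. Hk2 had 2 counts in KO and 2 in control libraries, below the 3 counts taken as the limit, so no fold is given.

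Regulators of transcription and of mRNA decay held the most abundant of the 29 genes by counts. Nfib, a transcription factor of the nuclear factor I family, had 4.32, 6.45 and 8.74 CPM in KO libraries and 4.48, 6.97 and 9.73 CPM in control libraries, as lowest, median and highest. The ranges lay almost on top of each other, with a log2 fold change of -0.10 (SE 0.22). Lmo4, a LIM-domain adaptor of transcription factor complexes, had 1.57, 3.16 and 3.84 CPM in KO libraries against 1.49, 3.71 and 5.62 CPM in control libraries. Its log2 fold change was -0.35 (SE 0.31, edgeR adjusted p = 0.857), the same without KO replicate 6. Zfp36l1, an RNA-binding protein that hastens the decay of mRNAs with AU-rich elements, had 1.85, 3.40 and 11.4 CPM in KO libraries against 2.95, 3.75 and 5.15 CPM in control libraries. The high KO value was KO replicate 6. The log2 fold change of Zfp36l1 was 0.08 (95% interval -0.63 to 0.79) with that library and -0.37 (SE 0.28, adjusted p = 0.813) without it. Among the 5 tested relatives of Nfib and Zfp36l1, 0 were called, and Nfia had the smallest unadjusted p (10.3 to 16.99 CPM in KO, 14.6 to 20.4 CPM in control libraries, log2 fold change -0.22, adjusted p = 0.720).

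Rest, the repressor that silences neuronal genes outside neurons and is itself low in beta cells, had 0.206, 0.820 and 2.97 CPM in KO libraries against 0.843, 1.19 and 1.51 CPM in control libraries. KO replicates 5 and 6, with 2.97 and 2.56 CPM, were the highest of all 12 libraries, and the other 4 KO libraries had 0.206 to 0.853 CPM. The exact permutation p was 0.844, and the KO to control ratio was 0.921 with all libraries and 0.730 without KO replicate 6. Genes that Rest represses elsewhere were abundant in control islets, such as Chga at 4059 and the gap junction gene Gjd2 at 36.6 CPM per kilobase, both picked after their values were seen. Of 9 tested Rest-repressed genes and 8 tested corepressors of Rest, 0 were called. The smallest unadjusted p belonged to the synaptic vesicle fusion gene Snap25 (16.998 to 31.7 CPM in KO, 27.9 to 35.5 CPM in control libraries, log2 fold change -0.18, adjusted p = 0.735) and to the corepressor Rcor2 (2.56 to 4.67 CPM in KO, 2.95 to 7.84 CPM in control libraries, log2 fold change -0.53, adjusted p = 0.614).

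Yap1, the coactivator at the end of the Hippo pathway, is switched off as endocrine cells form. It had 0, 1.55 and 2.13 CPM in KO libraries against 0.649, 0.919 and 1.88 CPM in control libraries, with 31 and 23 counts in all. KO replicate 3 had no count of it, and 2 KO libraries lay above the control range. The KO to control ratio was 1.35 (95% interval 0.762 to 2.42, exact permutation p = 0.394). Of the 9 tested Hippo and Tead partners, 0 were called, and the angiomotin-like gene Amotl1 had the smallest unadjusted p (29.3 to 40.9 CPM in KO, 37.3 to 50.1 CPM in control libraries, log2 fold change -0.29, adjusted p = 0.357).

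Among the genes grouped here as metabolic and detoxifying, Cat and Ndrg2 could be tested. For Ndrg2 the grouping is one of layout and not a statement of enzyme activity. Cat encodes catalase, which breaks down hydrogen peroxide, and beta cells are known for little of it. It had 1.28, 3.09 and 7.32 CPM in KO libraries against 1.96, 3.08 and 4.11 CPM in control libraries. KO replicate 6 was again the high value, and the other KO libraries did not exceed 3.40 CPM. Its log2 fold change was 0.13 (SE 0.32, edgeR adjusted p = 0.964) with that library and -0.17 (SE 0.29, adjusted p = 0.946) without it. Ndrg2 had 2.62, 3.54 and 5.95 CPM in KO libraries against 2.94, 5.08 and 6.34 CPM in control libraries, with a log2 fold change of -0.30 (SE 0.24, edgeR adjusted p = 0.808), or -0.29 without KO replicate 6. Acot7 (an acyl-CoA thioesterase), Oat (ornithine aminotransferase) and Mgst1 (a microsomal glutathione transferase) had KO to control ratios of 0.899, 0.777 and 1.002, each with an interval that included 1. Without KO replicate 6 these ratios were 0.848, 0.747 and 0.927. Oat reached 5.15 CPM in control replicate 6 and stayed at or below 2.29 CPM in the other controls. Of the 9 tested genes for other peroxide-removing enzymes 0 were called, and Prdx4, a peroxiredoxin of the endoplasmic reticulum, had the smallest unadjusted p (22.2 to 54.4 CPM in KO, 16.4 to 26.9 CPM in control libraries, log2 fold change 0.52, adjusted p = 0.409).

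Growth factor receptors and secreted factors were all under the filter. Pdgfrb, the receptor for PDGF-B that is best known from pericytes, ran from 0.366 to 3.40 CPM in KO libraries (median 2.37). In control libraries Pdgfrb ran from 0.373 to 3.77 CPM (median 1.71). The lowest value of each group came from KO replicate 6 and control replicate 1. KO replicate 5, which had the highest acinar markers, held the highest KO level of Pdgfrb, 3.40 CPM. The KO to control ratio of Pdgfrb was 1.17 (95% interval 0.757 to 1.82), and 1.31 (0.842 to 2.04) without KO replicate 6. Without that library its log2 fold change was 0.37 (SE 0.39, edgeR Benjamini-Hochberg adjusted p = 0.884). The other PDGF receptor, Pdgfra, had 1 count in KO replicate 3 and 0 counts over the controls, which allows up to 0.134 CPM over the 6 control libraries. Cxcl12, a chemokine, and Igfbp4, which binds insulin-like growth factors, had ratios of 0.873 (0.535 to 1.42) and 0.963 (0.640 to 1.45). Without KO replicate 6 these ratios were 0.790 and 1.05. Dlk1, an imprinted gene for a Notch-related membrane protein, ran from 0.206 to 2.56 CPM in KO and from 0.377 to 4.08 CPM in control libraries, with control replicate 6 as the highest. Itih5, of the inter-alpha-trypsin inhibitor family, had 2 counts in KO and 1 in control libraries. In the list of PDGF ligands and CXCL12 receptors, Pdgfa was the tested gene (12.97 to 18.7 CPM in KO, 13.9 to 18.2 CPM in control libraries, log2 fold change -0.09, adjusted p = 0.927).

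Genes of signalling, DNA repair and transport were under the filter as well. Arap2, which turns off small GTPases of the ARF family, had 0.853, 1.25 and 2.93 CPM in KO libraries against 0.377, 0.646 and 2.24 CPM in control libraries. All 6 KO libraries lay above the 4 lowest control libraries, and the groups overlapped. Its ratio of 1.70 (95% interval 0.952 to 3.12, exact permutation p = 0.177) became 1.48 without KO replicate 6. Parp3, an ADP-ribosyltransferase of DNA repair, had a ratio of 1.35 (0.762 to 2.42), Fcgrt, the neonatal Fc receptor that recycles antibodies, 1.09 (0.669 to 1.77), and Tgm2, a transglutaminase, 0.981 (0.642 to 1.498). Without KO replicate 6 the ratios of Fcgrt and Tgm2 were 1.01 and 0.974. Dapk2, a calmodulin-regulated kinase, had 12 counts in KO and 8 in control libraries. The 3 libraries of high acinar markers held its 3 highest levels, 1.70 and 2.56 CPM in KO replicates 5 and 6 and 1.49 CPM in control replicate 1, against 0 to 0.632 CPM in the other 9. Its ratio was 1.502 with all libraries and 0.713 without KO replicate 6.

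Dedifferentiation and progenitor genes did not separate KO from control islets. Neurog3 had 3.20, 4.66 and 5.76 CPM in KO libraries against 3.79, 4.504 and 5.97 CPM in control libraries, with a log2 fold change of -0.01 (SE 0.22). It was counted in every library, 9 to 28 counts in KO and 13 to 19 in control libraries. An exon of Fam241b overlaps it on the other strand, as exons of other genes do for Zfp36l1, Yap1, Tgm2 and Pdgfra. Whether the counting used strand is not given, so reads of these overlapping genes may be mixed. Aldh1a3, which makes retinoic acid and marks failing beta cells in diabetic mice, had 1.10, 2.61 and 3.50 CPM in KO libraries against 0.980, 2.30 and 7.59 CPM in control libraries. The highest value was control replicate 4, and all 6 KO libraries lay within the control range. Fev, a transcription factor of endocrine progenitors and serotonin neurons, had 1.65, 2.19 and 3.82 CPM in KO libraries against 1.49, 2.59 and 3.59 CPM in control libraries. Gast, the hormone gastrin, which is made in the fetal pancreas, had 12 counts in KO and 19 in control libraries, with a ratio of 0.633 (0.280 to 1.37, exact permutation p = 0.268). In the list of other dedifferentiation and progenitor genes, 2 could be tested and 0 were called.

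The other side of beta cell identity was measured by 17 genes of mature beta cells, and 0 of these were called. Neurod1, a transcription factor that keeps islet cells mature, had the smallest unadjusted p, with 62.6 to 78.0 CPM in KO and 75.04 to 90.5 CPM in control libraries (log2 fold change -0.25, SE 0.07, adjusted p = 0.300). The 2 ranges overlapped at their edges. The median log2 fold change of the 17 genes was -0.03. At an unadjusted p under 0.05 there was 1 of the 17, against 7.91% of all tested genes. Without KO replicates 5 and 6 and control replicate 1 there were 6 of the 17, against 8.24% of all tested genes, and again 0 were called by edgeR (lowest adjusted p = 0.189). The authors' deposited DESeq2 p-values, unadjusted, were 0.00158 for Neurod1, 0.0171 for Mafa and 0.0240 for Slc30a8. Their deposited log2 fold changes were -0.25, -0.19 and 0.18, and these genes were picked after their values were seen. The share of all genes with such p-values among the deposited ones is not given here. Over all 11 partner and identity lists, 0 of 67 tested genes were called, against 0.124% of all tested genes. An unadjusted p under 0.05 was found for 5 of them (7.46%), a share near the 7.91% of all tested genes. In the list of 8 further genes reported as disallowed, the focal adhesion gene Tns1 could be tested, with 1.52 to 5.52 CPM in KO and 1.51 to 4.85 CPM in control libraries (log2 fold change 0.24, adjusted p = 0.913).

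KO replicate 6 was the highest KO library for 10 of the 29 genes and the lowest for 3. Of 17 lymphocyte markers, 14 were highest of all 12 libraries there, and no marker of the list was at 0 over all libraries. Its most abundant lymphocyte genes were Cd52 and Coro1a, with 74.0 and 48.3 CPM. In the other 11 libraries Cd52 had at most 10.6 CPM and Coro1a at most 4.76 CPM. Of the 31 acinar markers in the table, 27 had their 3 highest levels in KO replicates 5 and 6 and control replicate 1. The part of lymphocytes or acinar cells in the levels of Ldha, Zfp36l1, Cat, Rest and Dapk2 was not tested. Without KO replicate 6, the KO ranges of Ldha, Zfp36l1 and Cat were 2.88 to 3.91, 1.85 to 4.98 and 1.28 to 3.40 CPM, each overlapping the control range. Of the summed levels of 13 marker lists, 0 differed between KO and control libraries after adjustment over the lists (two-sided exact permutation tests, lowest adjusted p = 0.0563, for endothelial and erythroid markers). Erythroid markers summed to 139 to 281 CPM in KO and 62.5 to 167 CPM in control libraries. Of the 7 erythroid genes in the table, 4 had 0 counts, and the globin entry Beta-s gave nearly the whole sum. Beta-s had 138 to 277 CPM in KO and 61.1 to 164 CPM in control libraries. Alas2 had 0.732 to 4.19 CPM in KO and 0.644 to 3.39 CPM in control libraries. Both genes were picked after their values were seen. On total counts and without KO replicate 6 the erythroid sum passed the adjustment, with 189 to 293 CPM in KO and 65.5 to 159 CPM in control libraries (exact permutation test, adjusted p = 0.0281). The part of erythroid cells in the levels of the 29 genes was not tested.

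**Figure D4:**
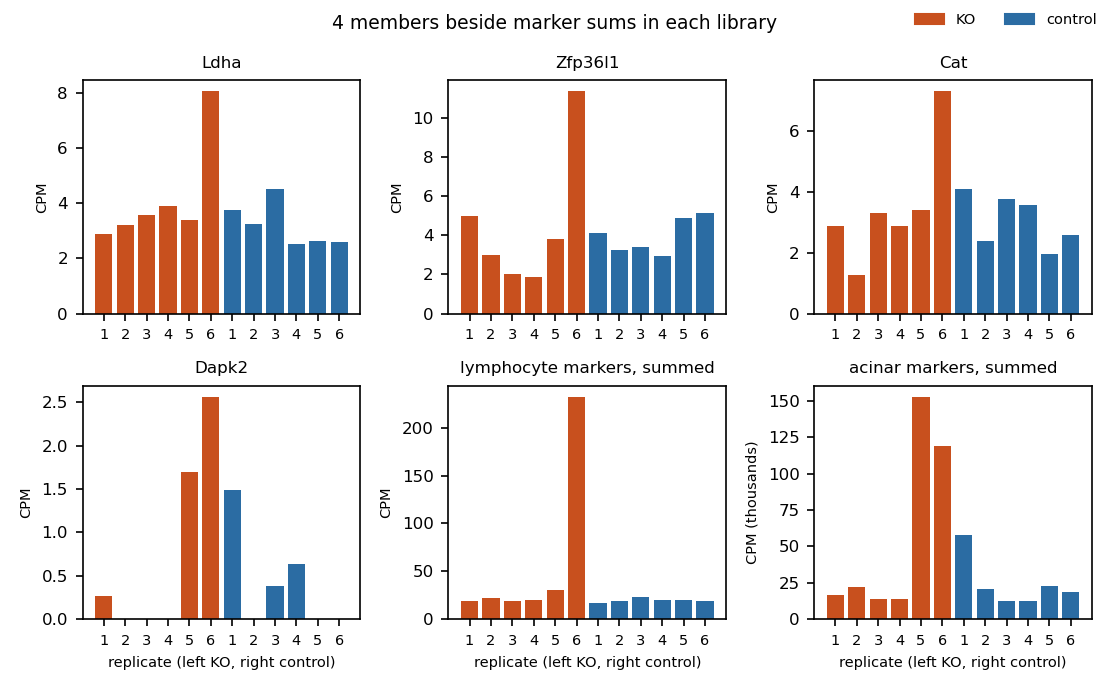
CPM of Ldha, Zfp36l1, Cat and Dapk2 and summed CPM of lymphocyte and acinar markers in each library, KO replicates 1 to 6 at the left and control replicates 1 to 6 at the right of each panel. KO replicate 6 has the tallest bar for Ldha, Zfp36l1, Cat, Dapk2 and the lymphocyte markers, and Dapk2 is highest in the 3 libraries with the tallest acinar bars.

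The spread between libraries went beyond counting noise for part of the list. The chi-square per degree of freedom, which is near 1 where the spread equals counting noise, had a median of 1.15 in KO and 1.003 in control libraries. It exceeded 2 for 9 genes in KO, led by Zfp36l1 at 9.65, Dapk2 at 6.93, Rest at 4.16 and Cat at 4.03, and for 9 genes in control libraries, led by Aldh1a3 at 7.81 and Dlk1 at 4.499. In all, 14 of the 29 genes exceeded 2 in at least 1 group, among them Ldha, Zfp36l1, Cat, Lmo4 and Nfib of the 8 tested genes. The share of all genes over 2 was not computed, so these counts do not set the list apart from other genes. Nor was the measure computed without KO replicate 6, which held the highest KO value of Ldha, Zfp36l1, Cat and Dapk2. For the genes with the fewest counts, such as Hk2, Itih5, Pdgfra and Slc16a1, this measure says little. Of the 3 tested genes with a seed match, Zfp36l1, Nfib and Neurog3, 0 were called, with log2 fold changes of 0.08, -0.10 and -0.01.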

How the data were processed

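Islet RNA of 6 KO and 6 control libraries was extracted with Trizol and a column kit, per the labels' protocols. The submitters' processing notes list the build mm9 and the tools TopHat2, HTSeq and DESeq2 1.4.5 but give none of them a role. The annotation and strandedness are not given in the sources used here. The deposited table holds raw read counts per gene, per the file headers. The normalized signal the authors deposited equals the count divided by 1 factor per library, 0.662 to 1.35, and entered no test. The log2 fold change and p-value columns of the authors' deposited table are DESeq2 output, per the file headers. Of 23366 rows, 27 whose name had become a date (0.0447% of counts) were left out. The lowest chi-square per gene between any 2 of the 12 libraries was 1.97, so no library was taken as a copy of another.

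Counts were tested with edgeR 4.0.16 (R 4.3.3; TMM factors, quasi-likelihood F test, default filter with minimum count 10 and minimum total 15, Benjamini-Hochberg threshold 0.05), KO over control, with no covariate. Adjusted p values run over all genes tested. Genes under the filter got two-sided exact permutation tests of mean CPM (smallest possible p 0.00216) and ratios of counts with exact 95% binomial intervals. Ratio intervals and limits (3 counts, 0.618 to 1.27 CPM in a single library) reflect counting error alone. The ratio intervals pool the counts of each group and leave out the spread between libraries. PCR copies of a molecule are counted as separate reads, so the counting error itself may be larger. Exon lengths and 3′ UTRs are from GENCODE vM21 (GRCm38) by gene symbol, current for 21667 rows and older for 1269. A 3′ UTR of at least 20 bases was found for 19879 rows. The scripts were tested on simulated data. DESeq2 1.42.0, limma 3.58.1 (voom) and the other alternatives are compared in the closing section.

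All 29 genes, the partner lists, the marker lists and the naming rule were chosen with earlier results of these data known. The rule named all 29 genes, and of each partner list up to 4 called genes or else the gene with the smallest unadjusted p; for some lists that gene is not reported here. Of marker lists it took the sum and, where a library stood apart, the most abundant genes. The fit with no filter and without KO replicate 6, DESeq2 without that library, and marker sums on total counts without it, were added after seeing the data.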

Additional observations from a re-analysis of the deposited data

Results flagged for a closer look

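In groups of 6 libraries, a highest or lowest value was marked where its gap to the nearest other value was over 0.625 of the range of the group (Dixon's 95% value). Chance marks about 1 in 20 groups, and 58 groups of the 29 genes and 84 groups in all were examined. KO replicate 6 stood apart for Ldha at 8.06 CPM (other KO libraries 2.88 to 3.91), Zfp36l1 at 11.4 CPM (1.85 to 4.98), Cat at 7.32 CPM (1.28 to 3.40) and summed lymphocyte markers at 233 CPM (18.5 to 30.6). Control replicate 6 stood apart for Oat at 5.15 CPM (other controls 1.08 to 2.29) and Dlk1 at 4.08 CPM (0.377 to 1.49). Control replicate 4 stood apart for Aldh1a3 at 7.59 CPM (0.980 to 3.39) and summed macrophage markers at 87.7 CPM (66.9 to 72.8). Control replicate 1 stood apart for summed acinar markers at 57850 CPM (12454 to 23077). Pdgfra at 0.254 CPM in KO replicate 3 and Itih5 at 0.216 CPM in control replicate 2 are single counts in groups whose other libraries had 0.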

How the results depend on the processing

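No alternative called a gene of the 29, and none gave one of them an unadjusted p under 0.05 (edgeR, voom or DESeq2; lowest 0.0968, without control replicate 4). At a minimum count of 30 no gene of the list was left, so that setting has no median. The 12 genes called over the whole table became 22 with no filter, 34 with an acinar covariate, 28 with DESeq2, 30 without the 3 libraries 701, 703 and 706, 26 at an adjusted p of 0.10, and 5 to 17 with each library left out in turn (5, 6 and 7 without KO replicate 1, KO replicate 4 and control replicate 5). A term for title numbers (805 and above against lower) left control replicate 1, title number 706, as the only control beside the KO libraries. Fold changes of that fit compare KO with this 1 library, so no count of calls is drawn from it. The median log2 fold change over the genes that passed the filter was -0.18 without the 3 libraries (11 genes; -0.19 over the 8 of the main comparison) and -0.14 to 0.01 with each left out (9 to 11 genes). On total counts without KO replicate 6, 1 marker list, erythroid (nearly all from Beta-s), passed the adjustment. The summed control level was 157 CPM over counts other than Ins1 and Ins2, against 61.4 CPM. Matches of 8 bases stood in 7 genes.

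Of 88 single-gene values under other settings, 14 turned sign, and of 96 with a library left out, 14; the cause was not tested. Hk1 became 0.52 with the title term and -0.14 to 0.12 over left-out libraries. Lmo4 became 0.92 with the title term, which for every gene sets the KO libraries against control replicate 1 alone. Zfp36l1 became -0.22 with the acinar covariate, -0.27 with voom, -0.42 without the 3 libraries and -0.37 to 0.27 over left-out libraries. Cat became -0.033, -0.058, -0.15 and -0.17 to 0.33 under these same settings, and -0.32 with the title term. Nfib became 0.52 with the title term and -0.24 to 0.042 over left-out libraries. Neurog3 became 0.015, 0.017, 0.15 and -0.11 to 0.090 under the same settings as Zfp36l1.

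Replicate numbers did not pair the libraries: correlations of same-numbered deviations ran from -0.10 to 0.05, and 0 of 6 pairs matched best with their own number. With the number as a block, 15 genes were called, 0 of the 29, and Hk1 became 0.035. Low counts were a limit, since 21 of the 29 genes were under the expression filter. The part of sequencing depth in this was not tested.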
